A study of Mus musculus with 7 samples.

Results

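The 10 genes described here encode proteins of the neuronal cytoskeleton. They are the stathmins Stmn2, Stmn3 and Stmn4, the growth cone protein gene Gap43, the tubulin gene Tubb3, and the intermediate filament genes Nefl, Nefm, Nefh, Ina and Prph. The list was chosen by function and with the difference between the groups in these arrays already known, so the members' own KO and WT values are given as a description, without p-values. A gene was measured where a probe set of the deposited table was annotated to that symbol alone. All 10 members were found this way, on 11 probe sets, among 22180 named genes. Stmn4 has 2 such probe sets, and the brighter one was used. A further probe set that names Nefm together with another symbol was not used.

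Total RNA of whole adrenal glands from female mice aged 2 months was hybridised to 1-colour Affymetrix arrays. The KO group was 4 mice of genotype sf1:Cre; Ezh2 Fl/Fl, in which a Cre recombinase driven by the steroidogenic factor 1 (sf1) gene deletes floxed Ezh2, the Polycomb enzyme that places repressive methyl groups on histone H3. The WT group was 3 wild-type littermates, and whether these carried floxed alleles or Cre is not given in the labels. The mice of both groups had an uncontrolled mixed background, mainly of C57BL/6 and SV129. The sf1 gene is active in steroid-producing cells of the cortex, and the gland also holds the medulla, nerve fibres, glia, capsule and vessels, all of which contribute RNA.

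Neurons hold their axons open with microtubules and with neurofilaments. Stathmins bind free tubulin and regulate the growth and shrinkage of microtubules, Tubb3 is the beta-tubulin isotype typical of neurons, and Gap43 is a membrane-bound protein of growing axon tips. Nefl, Nefm and Nefh are the light, medium and heavy subunits of neurofilaments, Ina encodes alpha-internexin, a further filament subunit, and Prph encodes peripherin, a filament protein of peripheral neurons. Chromaffin cells, the catecholamine-secreting cells of the adrenal medulla, derive from the neural crest as sympathetic neurons do, and they express several of these genes.

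Values are RMA log2 values, in which 1 unit is a 2-fold difference, and differences are KO minus WT. They carry the standard error (SE) of limma, a linear model fitted over all genes, and group values are mean ± SD. Medians over all probe sets were 5.32 to 5.38 on the 7 arrays. The gland's main cell types were found at high levels in both groups. The cortical cholesterol carrier Star lay between 12.83 and 12.98 in KO and between 13.02 and 13.10 in WT, and the chromaffin enzyme Th between 11.64 and 11.91 in KO and between 10.73 and 10.84 in WT. Ezh2 itself was at 7.04 ± 0.13 in KO (SD, n = 4) and at 7.08 on each WT array (difference -0.04, SE 0.07). Which exons its probe set covers was not known here, so this value does not check the genotypes. The array of KO replicate 2 stood apart from the other KO arrays for several of the members, and values without it are given beside them.

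Each of the 10 members had a higher mean in KO than in WT glands, although Stmn4 turned under 2 other scalings. The largest differences were those of Stmn2 (2.50-fold), Tubb3 (2.25-fold) and Stmn3 (2.04-fold). Limma called 3 members higher in KO at an adjusted p under 0.05, namely Stmn2, Stmn3 and Ina, where 5.14% of all genes were called higher, 3.55% lower and 8.69% in either direction. For 6 members every KO array lay above every WT array, as it did for 10.3% of all genes. Rises were 59.1% of all calls, or 43.1% with each array centred on its median, a scaling under which Stmn2, Stmn3 and Ina were called as well. Since the members were listed with this contrast known, nothing is read from these counts. The median difference was 0.73 over the 10 members and 0.0004 over all genes.

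Stmn2, which encodes a stathmin of growing neurites, was at 8.87, 9.52, 8.84 and 8.56 on KO replicates 1 to 4, against 7.63, 7.66 and 7.58 on WT replicates 1 to 3. The groups did not overlap, and the lowest KO array was 0.90 above the highest WT array. The means were 8.95 ± 0.40 in KO (SD, n = 4) and 7.63 ± 0.04 in WT (SD, n = 3), a difference of 1.32 (SE 0.20, 95% interval 0.84 to 1.80). Without KO replicate 2, the highest array, the difference was 1.13. Stmn2 ranked 39 among all genes by the size of its rise.

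Stmn3, a stathmin of neurons that is found at membranes, was at 8.42, 8.51, 8.28 and 8.10 in KO, against 7.34, 7.32 and 7.24 in WT. The groups again did not overlap, and both were tight. The means were 8.33 ± 0.18 in KO (SD, n = 4) and 7.30 ± 0.05 in WT (SD, n = 3), a difference of 1.03 (SE 0.10, 95% interval 0.80 to 1.25). It was the only member whose call held without each single array in turn. Since the members were listed with this contrast known, nothing is read from the members' calls here either. Without WT replicate 3 the calls of Stmn2 and Ina were lost, and Ina was also not called at an adjusted p under 0.05 without WT replicate 2 or without KO replicate 1.

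Stmn4, the remaining stathmin of neurons on the list, gave no clear difference on its brighter probe set. That probe set was at 5.68 on all 4 KO arrays, against 5.68, 5.68 and 5.55 in WT, so that 6 of 7 arrays carried 1 identical value (difference 0.04, SE 0.04). Its sign turned negative with each array centred on its median (-0.0088) and under quantile normalization on top of RMA (-0.0099). The dimmer probe set was at 4.57, 4.80, 4.78 and 4.72 in KO, against 4.57, 4.39 and 4.32 in WT, a difference of 0.29. The authors' deposited table gives 1 log2 change for Stmn4, of 0.27. Exact repeats of a value among arrays were common in the deposited table, and 54.7% of the 22180 genes had at least 2 arrays at the same value.

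Gap43, the growth cone gene, was at 5.30, 5.78, 5.35 and 5.31 in KO, against 5.21, 5.12 and 4.92 in WT. The KO arrays were all above the WT arrays, by 0.09 at the narrowest point. The difference was 0.35 (SE 0.13, 95% interval 0.04 to 0.67), or 0.24 without KO replicate 2, which was 0.46 above the mean of the other KO arrays.

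**Figure D1:**
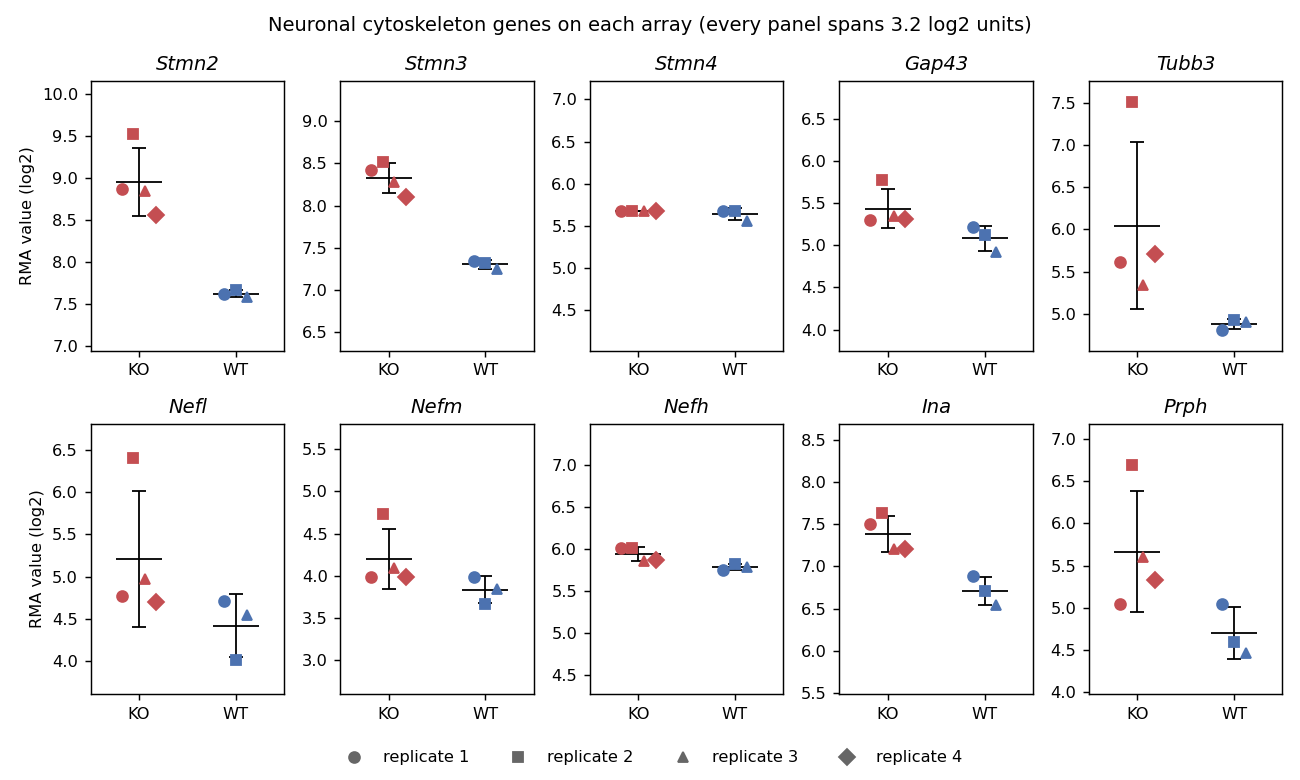
RMA log2 values of the 10 members on each array, with KO on the left and WT on the right of each panel. Points are single arrays with a marker shape for each replicate number, and bars give the mean ± SD (n = 4 KO, n = 3 WT). The KO arrays all lie above the WT arrays for 6 members (Stmn2, Stmn3, Gap43, Tubb3, Nefh and Ina), and KO replicate 2 is the highest array for 8, all but Stmn4 and Nefh.

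Tubb3 showed the widest spread of all members. It was at 5.62, 7.51, 5.34 and 5.71 in KO, against 4.81, 4.93 and 4.90 in WT. Every KO array lay above every WT array, but KO replicate 2 was 1.96 above the mean of the other KO arrays. The means were 6.04 ± 0.99 in KO (SD, n = 4) and 4.88 ± 0.06 in WT (SD, n = 3), a difference of 1.17 (SE 0.49, 95% interval 0.002 to 2.33). Tubb3 was not called with all 7 arrays. Without KO replicate 2 the difference was smaller, 0.68 with an SE of 0.10, and Tubb3 was called, which made 4 members called higher in place of 3.

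Among the filament genes, Ina was the only one called. It was at 7.50, 7.63, 7.21 and 7.21 in KO, against 6.88, 6.71 and 6.55 in WT, with no overlap. The means were 7.39 ± 0.21 in KO (SD, n = 4) and 6.71 ± 0.17 in WT (SD, n = 3), a difference of 0.67 (SE 0.13, 95% interval 0.37 to 0.98), or 0.59 without KO replicate 2.

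Prph was at 5.04, 6.69, 5.61 and 5.33 in KO, against 5.04, 4.59 and 4.47 in WT. KO replicate 2 was 1.36 above the mean of the other KO arrays, and KO replicate 1 lay at the level of the highest WT array. The difference was 0.97 (SE 0.38, 95% interval 0.07 to 1.86), or 0.63 without KO replicate 2 (SE 0.20).

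Nefl, the subunit on which neurofilament assembly depends, was at 4.77, 6.41, 4.97 and 4.69 in KO, against 4.71, 4.00 and 4.54 in WT. The groups overlapped, since the lowest KO array lay under the highest WT array, and KO replicate 2 was 1.60 above the mean of the other KO arrays. The difference of 0.79 (SE 0.43, 95% interval -0.22 to 1.80) was 0.39 without KO replicate 2.

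Nefm was at 3.98, 4.73, 4.09 and 3.98 in KO, against 3.98, 3.67 and 3.85 in WT, with the same value on KO replicates 1 and 4 and WT replicate 1. Its values lay low on the scale of these arrays, at a mean percentile of 22.7 of all genes in KO and 17.1 in WT. The difference of Nefm was 0.36 (SE 0.19), or 0.18 without KO replicate 2. Low WT levels were also found for Nefl, Prph and Tubb3, at mean percentiles of 26.8, 31.5 and 34.6. Of the members, 4 had a mean over all arrays above the median level of all genes.

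Nefh had a small difference and the narrowest spread of the neurofilament subunits. It was at 6.01, 6.01, 5.85 and 5.87 in KO, against 5.75, 5.82 and 5.79 in WT. The groups did not overlap, with a gap of 0.03. The difference was 0.15 (SE 0.06, 95% interval 0.02 to 0.28).

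KO replicate 2 was the highest KO array for 8 of the 10 members, where it was the highest for 22.5% of all genes. The exceptions were Stmn4, which was at 1 value on the KO arrays, and Nefh, for which KO replicate 1 was marginally higher. Of the 92 measured genes in the related lists given below, 41 (44.6%) were also highest on KO replicate 2, some by a tied value. Relative to the WT mean, KO replicate 2 was 2.64 higher for Tubb3, 1.99 for Nefl, 1.99 for Prph and 1.89 for Stmn2, and 1.21 for Stmn3 and 0.92 for Ina. The mean of 16 chromaffin genes was 10.22, 10.16, 10.07 and 9.99 on KO replicates 1 to 4, and 3 of the 16 (Slc18a2, Npy and Syt1) were highest on KO replicate 2. For 13 markers of ganglion neurons and nerve fibres the mean was 5.63, 5.66, 5.55 and 5.54 on KO replicates 1 to 4. Of these 13 markers 5 were highest on KO replicate 2. For 8 adipocyte markers the mean was 7.06, 8.70, 8.55 and 7.85, and 5 of them were highest on KO replicate 2. The mean of 8 markers of Schwann cells and glia was 6.16 on KO replicate 2, against 5.80 to 5.88 on the other KO arrays. Within that list Fabp7, a fatty acid-binding protein of glia, was at 8.27 on KO replicate 2 and at 6.61, 6.99 and 7.16 on the other KO arrays, the widest gap of the 8. Of the 8 markers 4 were highest on KO replicate 2 (Fabp7, Cdh19, Ngfr and Sox10), and Erbb3 was lowest there, at 6.33 against 6.50 to 6.81 on the other KO arrays. In the remaining lists KO replicate 2 was the highest KO array for 0 of 10 capsule and stroma markers, 1 of 12 cortical markers and 1 of 8 markers of proliferating cells. The part of these cell types in the members' values was not tested.

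**Figure D2:**
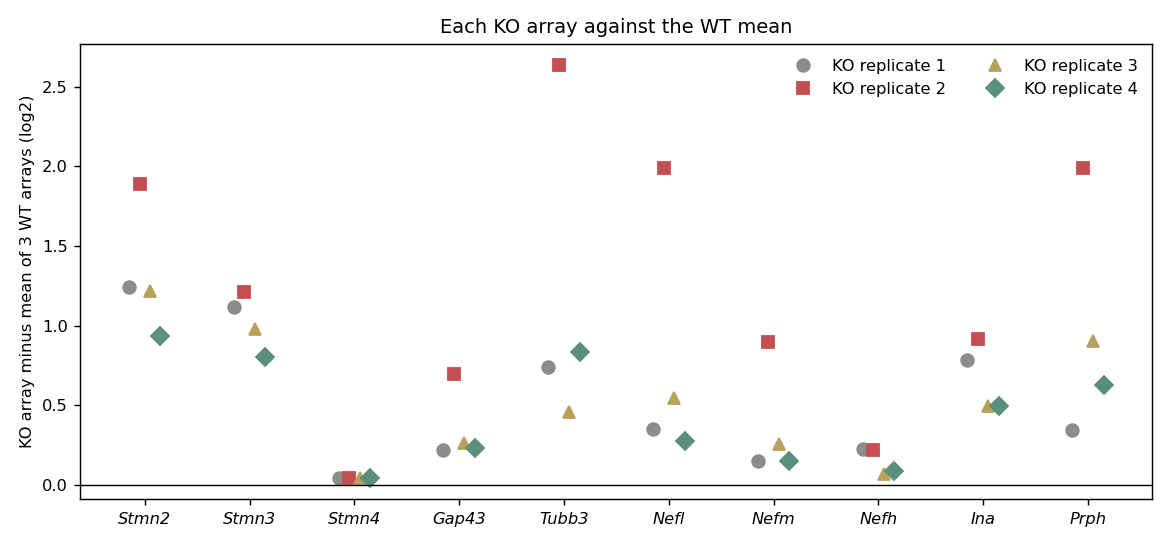
Difference of each KO array from the mean of the 3 WT arrays, in log2 units, for the 10 members. KO replicate 2 lies above the mean of the other KO arrays by 1.96 for Tubb3, 1.60 for Nefl and 1.36 for Prph, and by 0.24 for Stmn3, 0.09 for Nefh and 0.32 for Ina.

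The difference of most members was of the size of that of chromaffin genes or below it. Of 16 measured chromaffin markers 14 rose in KO by limma, where 5.14% of all genes did. The markers were chosen with earlier results of these data known, so this count is a description. Their mean was 10.11 ± 0.10 in KO (SD, n = 4) and 9.20 ± 0.05 in WT (SD, n = 3), a difference of 0.91. Subtracting this mean from each array left differences of 0.41 for Stmn2, 0.26 for Tubb3, 0.12 for Stmn3 and 0.06 for Prph, and negative ones for the other 6 members, from -0.12 for Nefl to -0.87 for Stmn4. The members lay below this mean in level, in KO from -1.16 for Stmn2 to -5.92 for Nefm relative to it. Whether log2 differences compare across such unlike levels was not tested. In whole glands, more cells of a type and more RNA per cell cannot be told apart. With the chromaffin mean as a covariate none of the members was called, nor was any of the 22180 genes by limma (1618 with an unadjusted p under 0.05). This mean almost coincides with the groups, and the SE of Stmn3 was then 0.38 in place of 0.10.

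Markers of ganglion neurons and nerve fibres moved in part with the groups. Of 13 measured, 6 rose in KO by limma (Elavl3, Elavl4, Snap25, Uchl1, Slc17a6 and Vip), and their mean level was 5.54 to 5.66 in KO and 5.11 to 5.15 in WT. Snap25, a protein of exocytosis that chromaffin cells also make, rose by 1.33 (SE 0.11, adjusted p = 0.00158). Defining markers of cholinergic and sensory neurons were low: the choline acetyltransferase gene Chat lay between 4.18 and 4.46 in KO and between 4.19 and 4.21 in WT, and the sensory sodium channel gene Scn10a between 3.56 and 3.91 in KO and between 3.49 and 3.60 in WT. Of 8 markers of Schwann cells and glia 1 rose, Cdh19, by 0.74 (SE 0.14, adjusted p = 0.0195), and 3 were higher at an unadjusted p under 0.05. The other two were Fabp7, with a difference of 1.23 (adjusted p = 0.0861), and Erbb3, with one of 0.51 (adjusted p = 0.0676), both without overlap of the groups. The mean of the 8 was 5.80 to 6.16 in KO and 5.51 to 5.55 in WT. Of 10 capsule and stroma markers 5 rose, with list means of 8.17 to 8.94 in KO and 7.75 to 7.86 in WT. Of 12 cortical markers 1 rose by limma, the lipoprotein receptor Scarb1, by 0.34 (adjusted p = 0.0390). At an unadjusted p under 0.05, 5 of the 12 were higher, Scarb1 among them, and 2 were lower. Over all genes, 5063 of 22180 had an unadjusted p under 0.05 in either direction, which is the share to set beside the unadjusted counts given here. Adipocyte markers differed between arrays of both groups, with list means of 7.06 to 8.70 in KO and 8.28 to 9.30 in WT, and none of the 8 was called by limma (1 with an unadjusted p under 0.05, and lower). None of the 8 markers of proliferating cells was called by limma either (3 with an unadjusted p under 0.05, each lower). The part of these cell types in the members' differences was not tested.

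**Figure D3:**
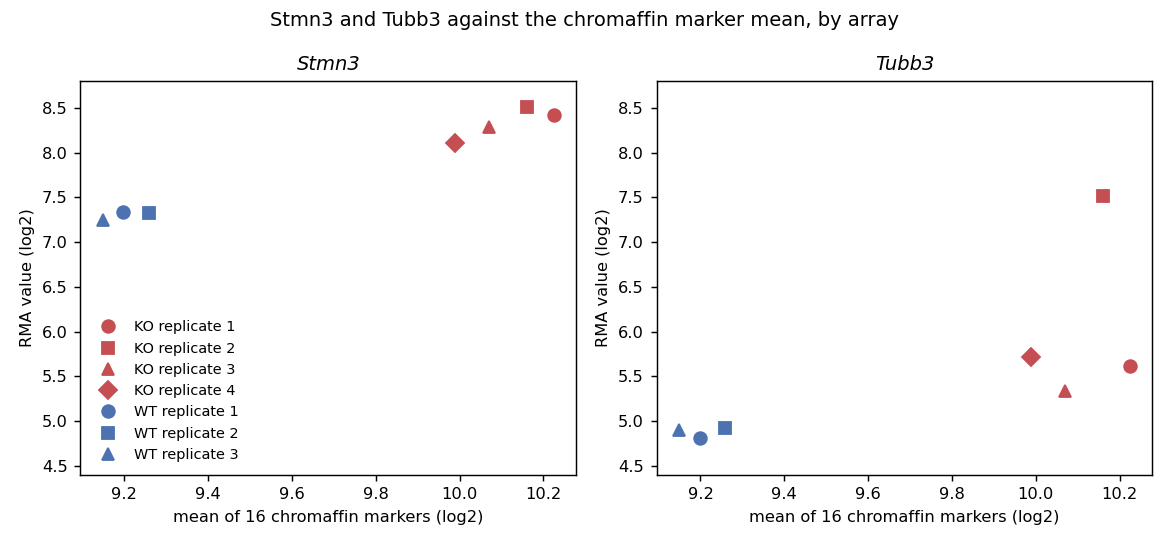
RMA log2 values of Stmn3 and Tubb3 on each array (vertical axes) against the mean of 16 chromaffin markers on the same array (horizontal axes, log2). For Stmn3 the KO arrays lie together at 8.10 to 8.51, above the WT arrays at 7.24 to 7.34, whereas for Tubb3 KO replicate 2 at 7.51 is apart from the other KO arrays at a like chromaffin mean.

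Promoter sequences were used to see what the members share at the DNA level. RefSeq promoters on build GRCm38.p6 were matched for 4 members, Stmn3, Tubb3, Ina and Prph. These are shown because they are the members with an entry in the table used. The 150 bases before the annotated start are given 5′ to 3′, with capitals for TATAAA and GGGCGG on either strand (CCGCCC is GGGCGG on the opposite strand).
Stmn3 (chr2:181314501-181314650, minus strand): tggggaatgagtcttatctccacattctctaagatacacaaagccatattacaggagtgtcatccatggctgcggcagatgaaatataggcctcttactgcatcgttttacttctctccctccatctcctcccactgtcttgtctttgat
Tubb3 (chr8:123411403-123411552, plus strand): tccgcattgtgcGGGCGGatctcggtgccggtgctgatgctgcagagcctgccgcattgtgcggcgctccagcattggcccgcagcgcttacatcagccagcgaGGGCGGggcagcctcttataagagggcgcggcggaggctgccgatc
Ina (chr19:47014531-47014680, plus strand): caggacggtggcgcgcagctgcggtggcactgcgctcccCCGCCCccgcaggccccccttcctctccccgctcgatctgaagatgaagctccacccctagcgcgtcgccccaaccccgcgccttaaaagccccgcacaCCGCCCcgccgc
Prph (chr15:99055024-99055173, plus strand): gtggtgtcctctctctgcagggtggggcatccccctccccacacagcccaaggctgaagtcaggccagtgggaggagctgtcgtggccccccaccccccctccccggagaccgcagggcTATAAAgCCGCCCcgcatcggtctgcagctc

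The 4 promoters differed in composition. Over the window of 250 bases before to 50 after the start, Ina held 32 CpG dinucleotides, more than 90.5% of the 32851 RefSeq promoters, and Tubb3 held 26, more than 83.1%. Prph held 10 and Stmn3 held 6, near the median of 7 for all promoters. GGGCGG, the core of a GC box, was found in 3 of the 4 promoters and in 35.7% of all, with 2 matches each in Tubb3 and Ina. TATAAA, a core promoter sequence, was found in Prph alone of the 4, at position -31 from the start, and in 13.6% of all promoters. CANNTG, an E-box, was found in 2 of the 4, Stmn3 and Ina, and in 72.3% of all. The cyclic AMP response element TGACGTCA (1.79% of all promoters) and TTCAGCACC, a stretch of the element bound by the repressor REST (0.371% of all), were not found in these 4 windows.

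The members lie on 8 chromosomes. Nefl and Nefm are direct neighbours on chromosome 14 in the order of protein-coding genes of the same assembly, and no other members adjoin each other. Of the 18 other genes next to a member 16 were measured, and limma called none of them (none with eBayes under trend and robust settings either). An unadjusted p under 0.05 was found for 3 of the 16, and for 5063 of all 22180 genes. Their differences ran from -0.31 for Il7, beside Stmn2, to 0.27 for Hey1, on the other side of Stmn2. Tuba1c, the tubulin gene beside Prph, had a difference of -0.11 (SE 0.06, adjusted p = 0.389).

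Genes that work with the members were followed in 6 lists of 97 genes, none of them a member. Of the 92 measured, 24 rose (26.1%) and 3 fell (3.26%) by limma, where 5.14% of all genes were called higher and 3.55% lower. These lists too were chosen with earlier results of these data known, so their counts and p-values are a description. The median difference over the 92 was 0.14. The count of rises was 14 when WT replicate 2 or WT replicate 3 was left out, 16 when WT replicate 1 was, and 23 when KO replicate 2 was. Over all genes, rises fell from 1140 to 633 without WT replicate 2 and to 594 without WT replicate 3. They fell to 794 without WT replicate 1 and to 817 without KO replicate 2. The chromaffin mean was 0.91 higher in KO on the same arrays, and its part in the rises of the lists was not tested.

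Of 18 other stathmin and growth cone genes 6 rose. Rtn1, a reticulon of the endoplasmic reticulum of neurons, was at 7.66, 7.74, 7.51 and 7.29 in KO, against 6.51, 6.57 and 6.70 in WT, and rose by 0.96 (SE 0.11, adjusted p = 0.00347). Crmp1 and Dpysl3, collapsin response mediator proteins that bind tubulin in axons, rose by 0.83 (SE 0.11, adjusted p = 0.00634) and by 0.79 (SE 0.08, adjusted p = 0.00228). Their relative Dpysl2 rose by 0.57, the kinesin adaptor Fez1 by 0.47 and the calponin Cnn3 by 0.37. Dpysl5 and Dpysl4 were not called, with differences of 0.22 (adjusted p = 0.323) and 0.02 (adjusted p = 0.779). Stmn1, the stathmin made by dividing cells of many types, had a difference of 0.04 (SE 0.04, adjusted p = 0.660). Basp1, a growth cone protein related in function to Gap43, had one of 0.11 (adjusted p = 0.368) and Marcks one of -0.17 (adjusted p = 0.440).

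Of 19 microtubule-associated proteins 7 rose and 1 fell. Map2, a protein of dendritic microtubules, was at 7.63, 7.68, 7.66 and 7.38 in KO, against 6.67, 6.69 and 6.94 in WT, and rose by 0.82 (SE 0.10, adjusted p = 0.00394). Tppp3 rose by 0.91, Map6, which stabilises microtubules, by 0.66, Map1a by 0.65, Map1b by 0.61, Map9 by 0.56 and the doublecortin-like kinase Dclk2 by 0.51. The doublecortin gene Dcx was not called, with a difference of 0.14 (adjusted p = 0.305). Mapt, which encodes the axonal protein tau, went the other way. It was at 7.40, 7.33, 7.16 and 7.32 in KO, against 7.83, 7.90 and 7.78 in WT, without overlap, and fell by 0.54 (SE 0.06, adjusted p = 0.00393).

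Of 20 other tubulins and tubulin-modifying enzymes 3 rose. Tuba1a, an alpha-tubulin abundant in developing neurons, was at 6.37, 7.04, 6.20 and 6.09 in KO, against 5.53, 5.35 and 5.61 in WT, and rose by 0.93 (SE 0.22, adjusted p = 0.0457). KO replicate 2 was its highest array, 0.82 above the mean of the other KO arrays. Tubb2a rose by 0.66 (adjusted p = 0.0341) and the deglutamylase Agbl4 by 0.50 (adjusted p = 0.0267). Tubb4a had a difference of 0.82 that was not called (SE 0.22, adjusted p = 0.0723), and the widely expressed Tubb5 one of 0.18 (adjusted p = 0.109). Tubb2b was not called either, with a difference of 0.07 (adjusted p = 0.720).

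Of 11 other intermediate filament genes none rose and 1 fell by limma, with 1 higher and 2 lower at an unadjusted p under 0.05. Over all genes, 5063 of 22180 were under that unadjusted p. Synm, which encodes synemin, a filament protein of muscle and other cells, fell by 0.44 (SE 0.11, adjusted p = 0.0458). Vim, the vimentin of mesenchymal, endothelial and glial cells, had a difference of 0.66 (SE 0.18, adjusted p = 0.0723), and Nes, the nestin of progenitor cells, one of -0.05 (adjusted p = 0.713). The median of the list was -0.02.

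Of 16 axonal motor and transport genes 6 rose and 1 fell, and 2 of 8 spectrin and ankyrin genes rose. Kif5c and Kif5a, the neuronal heavy chains of conventional kinesin, rose by 1.09 (SE 0.11, adjusted p = 0.00255) and by 0.82 (SE 0.09, adjusted p = 0.00298), while the ubiquitous Kif5b had a difference of -0.01 (SE 0.05, adjusted p = 0.940). Kif1a, the motor of synaptic and dense-core vesicle transport, rose by 0.71 (SE 0.07, adjusted p = 0.00229), while Kif1b fell by 0.25 (SE 0.05, adjusted p = 0.0194). The dynein intermediate chain Dync1i1 rose by 0.88 (adjusted p = 0.00539), and the dynein heavy chain Dync1h1 had a difference of -0.06 (adjusted p = 0.410). Whether the difference itself differs between the genes of such a pair was not tested. Kif3c and Kif21b were not called, with differences of 0.02 (adjusted p = 0.864) and -0.02 (adjusted p = 0.787). The scaffold genes Mapk8ip2 and Mapk8ip1 rose by 0.79 and 0.59. Ank3, the ankyrin of the axon initial segment, rose by 0.99 (SE 0.09, adjusted p = 0.00222), and the membrane skeleton gene Epb41l3 by 1.06 (SE 0.11, adjusted p = 0.00275). Ank2 had a difference of 0.36 (adjusted p = 0.0512).

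**Figure D4:**
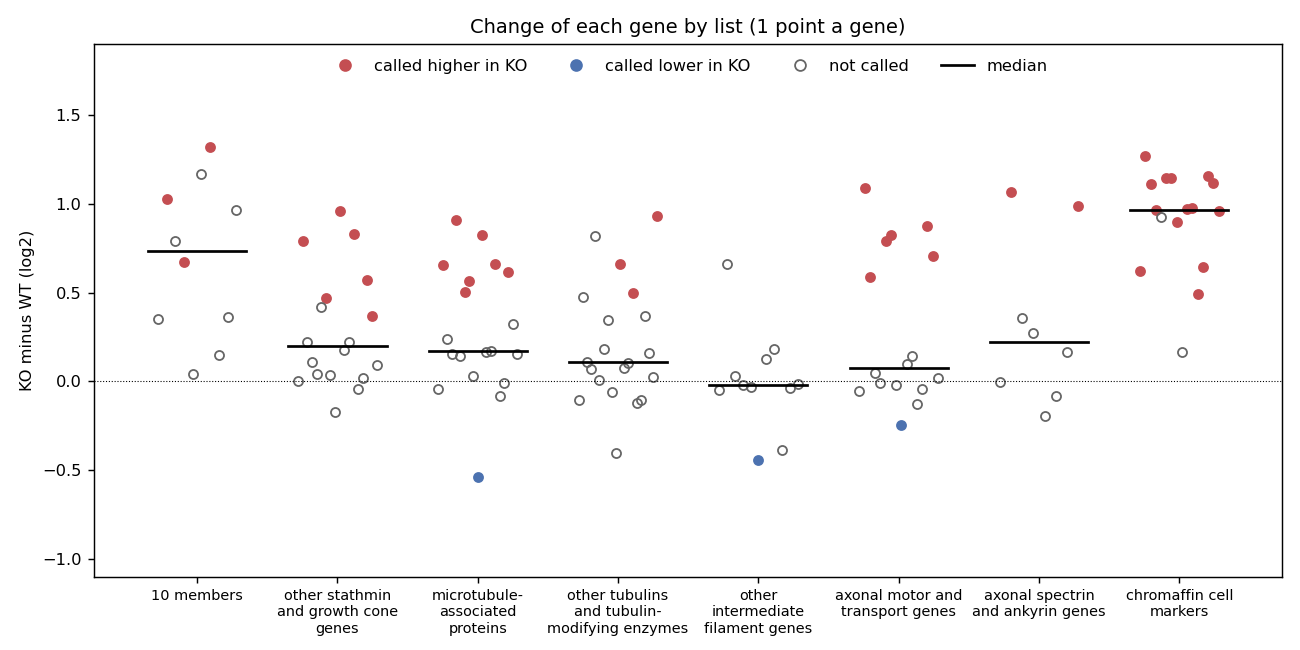
KO minus WT difference in log2 units, 1 point a gene, for the 10 members, the 6 lists of related genes and the chromaffin markers. Filled points were called by limma at an adjusted p under 0.05 and lines are medians, which lie at 0.73 for the members, between -0.02 and 0.22 for the 6 lists and at 0.97 for the chromaffin markers.

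The genes most like the members in pattern were ranked by Pearson's r over the 7 arrays with the mean of the 10 members, which was 6.12, 6.85, 6.12 and 6.05 in KO and 5.70, 5.55 and 5.54 in WT. Genes with the same split between the groups and a high value on KO replicate 2 rank first by this measure, so this r is a description of likeness. Of the genes ranked, the first was Mllt11 (r = 0.989), followed by Ank2 (r = 0.988) and the vesicle protein gene Syngr1 (r = 0.985). Slc6a2, the noradrenaline transporter of sympathetic neurons and chromaffin cells, came next (r = 0.983) and was at 6.99, 8.01, 6.74 and 6.90 in KO, against 6.36, 6.31 and 6.06 in WT. Drd2, the dopamine receptor, followed with r = 0.981 and was at 5.99, 6.65, 6.11 and 5.86 in KO, against 5.57, 5.46 and 5.24 in WT. Both were highest on KO replicate 2, as 8 of the 10 members were. The others of the first 10 were Syt11, Clgn, Lamp1, Tuba1a and Plxna3. Only Tuba1a among the 10 was called by limma. When deviations from the group means were ranked in the same way, the first 5 were Tcl1, Catsperz, Clgn, Ambn and Catsper3 (r = 0.989 to 0.993), each at under 5 log2 units on every array and with KO replicate 2 at most 0.22 above the next KO array.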

How the data were processed

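The authors deposited log2 values. The submitters' processing notes name RMA as the method, with version and genome build not given in the sources used. The log2 fold changes of the authors' deposited table were used once, and its deposited p-values were not used. Probe sets were named through the platform annotation: 23521 carried exactly 1 symbol, 1820 several and 16004 are unnamed here. For 1082 genes with more than 1 probe set the brightest over all 7 arrays was used, without a filter on low values. KO was compared with WT in limma 3.58.1 (lmFit, then eBayes; R 4.3.3), two-sided, with Benjamini-Hochberg adjustment over 22180 genes and 5 residual degrees of freedom. The number of arrays limits the precision (median SE 0.0703). The labels call the samples biological replicates.

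The members, the related lists and the cell type markers were chosen with earlier results of these data known. Named genes are the members, Ezh2, list genes, direct neighbours, and the 10 and 5 genes most like the members in pattern, leaving out predicted, RIKEN, olfactory receptor and small RNA genes and accession-like symbols. No protein sequences were used here.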

Additional observations from a re-analysis of the deposited data

Results flagged for a closer look

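In KO glands, 3 members had a single array set far above the other 3. Gap43 was at 5.78 on KO replicate 2, Nefl at 6.41 and Nefm at 4.73, with gaps to the nearest KO array of 0.903, 0.841 and 0.861 of the group's whole range, over Dixon's 95% limit for 4 samples. Tubb3, at 7.51 on the same array, had a gap of 0.828 of the range, just inside that limit. Chance alone passes this limit in about 1 in 20 groups. Over all 22180 genes 17.7% passed it in KO, in a table where arrays often carry identical values. The WT group of 3 was too small for this check. The cause was not tested.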

How the results depend on the processing

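Stmn2, Stmn3 and Ina were called, and no other member, with probe sets averaged per gene, each probe set on its own, eBayes with trend and robust, both other normalizations, array weights, the replicate block and a fold of at least 1.5. The fit on genes of at least median level held 4 members, and called the same 3 of them but not Nefh. As the members were listed with this contrast known, nothing is read from their calls. Leaving out 1 array at a time gave 1 to 4 members called. Over all genes it gave 594 to 945 higher and 322 to 654 lower, and in the related lists 14 to 24 higher and 1 to 3 lower. With the replicate block, by the numbers in the sample titles, there were 523 genes higher and 286 lower, and 15 and 1 in the lists. KO replicate 4 has no WT array of its number, so it adds nothing to the differences in that fit. Arrays with the same number in their titles had correlations of deviations of 0.07, -0.08 and -0.11, so these numbers are not taken as pairs. The descriptions of the WT samples carry other numbers than the titles, and pairs by those were not checked. With a fold of at least 1.5 there were 566 and 236, and in the lists 18 and 0. With arrays centred on their medians there were 1005 rises and 1329 falls, a share of rises of 43.1%, against 59.1% as deposited. With the chromaffin list mean as a covariate, 0 genes, 0 members and 0 list genes were called in either direction by limma (1618 genes and 5 list genes with an unadjusted p under 0.05), and the differences of Stmn2, Stmn3 and Ina were -0.48, -0.23 and -0.80, by a covariate that almost coincides with the groups. Apart from that covariate, the alternatives turned the sign of 1 member, Stmn4, under both other normalizations, and without WT replicate 3 all its remaining arrays carried 1 value.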
